A study of Homo sapiens with 16 samples.

Results

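The genes described here are the cancer-testis antigen families named MAGEA, MAGEB, MAGEC, GAGE, PAGE, XAGE, SSX and CTAG, together with PRAME. They were taken by symbol from the 34687 named genes of the authors' log2 table, which gave 82 members read by 153 probes. The set was chosen by a measured value: CTAG2's level was already known to differ strongly between the lymphoma lines TMD8 and HBL-1, so levels in the lines are given below as a description, with no test. The prefixes also took in 4 CTAGE genes and SSX2IP, which belong to other families: CTAGE5 is now called MIA2 and acts in protein export from the endoplasmic reticulum, and SSX2IP is a centrosome and cell junction protein that binds SSX2.

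RNA of TMD8 and HBL-1, human cell lines grown from diffuse large B cell lymphomas of the activated B cell-like type, was read on 16 Illumina bead arrays. Every culture had been treated for 8 h. TMD8 had 3 arrays with MI-2, a small molecule that inhibits the protease MALT1, 1 array with z-VRPR-fmk, a peptide inhibitor of the same protease, and 4 arrays with vehicle. HBL-1 had 3 MI-2 arrays, 1 z-VRPR-fmk array and 4 vehicle arrays. The sources used here give neither the doses nor what the vehicle was. Whether arrays of 1 group stem from different cultures is not in the labels, and a p-value then covers only array-to-array spread, perhaps a technical one. Each line stands for itself, and a difference between them is one between 2 lines.

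Cancer-testis antigens are proteins made in male germ cells and, in most other adult tissues, held silent largely by methylation of their promoters. Many lie in repeated copies on the X chromosome, and tumours can express them again, where peptides from them can be shown to T cells on HLA class I. MAGE proteins bind and steer ubiquitin ligases, SSX proteins act as transcriptional repressors, and PRAME binds the retinoic acid receptor and serves as a substrate receptor of a cullin ligase.

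The arrays' median signal intensities ranged from 82.5 to 103, and between 34.1% and 40.8% of an array's probes were detected, meaning a deposited detection p-value under 0.05. Levels below are log2 intensities after background correction and quantile normalization, and they compare arrays for 1 probe, not 1 probe with another. A gene was called measured where a probe was detected on at least 3 of the 16 arrays. The B cell markers were all measured (7 of 7), as were the markers of the activated B cell-like type (6 of 6), and 6 markers of each list were detected on every array of both lines. Of other cell types, 2 of 5 T cell markers (CD2, CD8A) and 1 of 4 myeloid markers (LYZ) were measured. The same held for 2 of 8 germ cell markers (POU5F1, TNP1) and for 0 of the 4 melanocyte markers on the array. None of these was detected on every array of either line.

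Of the 82 members, 26 were measured. The measured ones were 6 of 13 MAGEA genes, 2 of 10 MAGEB genes, 2 of 3 MAGEC genes, 3 of 20 GAGE genes, 3 of 11 XAGE genes, 4 of 10 SSX genes, 2 of 3 CTAG genes, 2 of 4 CTAGE genes, PRAME and SSX2IP. Among the 6 PAGE genes 0 were measured. Of the 56 members left, 34 were detected on no array and 22 on 1 or 2 arrays at most per probe. The largest difference between the line means of such a member was 0.07 in the authors' deposited log2 values, and for 0 of the 56 did the 8 TMD8 arrays lie apart from the 8 HBL-1 arrays. They were CTAG1B, CTAGE1 and CTAGE4; GAGE1, GAGE10, GAGE12B, GAGE12C, GAGE12D, GAGE12F, GAGE12G, GAGE12I, GAGE12J, GAGE2A, GAGE2C, GAGE2E, GAGE4, GAGE5, GAGE6, GAGE7 and GAGE8; MAGEA10, MAGEA12, MAGEA2B, MAGEA3, MAGEA4, MAGEA8 and MAGEA9. The remainder were MAGEB10, MAGEB16, MAGEB18, MAGEB2, MAGEB3, MAGEB4, MAGEB5, MAGEB6 and MAGEC3, with PAGE1, PAGE2, PAGE2B, PAGE3, PAGE4, PAGE5, SSX1, SSX2, SSX6, SSX7, SSX8, SSX9, XAGE-4, XAGE1A, XAGE1B, XAGE1C, XAGE2, XAGE2B, XAGE3 and XAGE5. Members of these families are near-identical copies in many cases, and which copy a probe reads is not given in the sources used here.

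In RefSeq, 63 members were found by their symbol and 12 by a synonym. Of these 75, 69 lie on chromosome X, and PRAME lies on chromosome 22. CTAG1A, CTAG1B and CTAG2 follow each other among the protein-coding genes of GRCh38.p14, between IKBKG and GAB3. MAGEA6 lies beside CSAG3, with MAGEA2 and MAGEA12 further along. SSX5 lies between SPACA5B and SSX1, with SSX3 beyond SSX1. MAGEB1 lies beside MAGEB4, with MAGEB3 and MAGEB2 further along. PRAME sits between ZNF280A and GGTLC2, inside the immunoglobulin lambda locus, a region that B cells rearrange.

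In 8 measured members the 8 TMD8 arrays did not overlap the 8 HBL-1 arrays, 7 with TMD8 lower and 1 (PRAME) with TMD8 higher. Across all 17586 genes tested, 12.8% did not overlap with TMD8 lower and 12.4% with TMD8 higher, 25.2% in all. As CTAG2 chose the set from this contrast, nothing is read from the members' count. RefSeq's promoter table held a window of 300 bases around the start for 5 of the 8 (MAGEA6, MAGEB1, MAGEB6B, PRAME, SSX5) and none for CTAG2, CTAG1A and MAGEA1. The windows of 4 of them are printed so that their CpG content and motifs can be read, taking for each gene the window with the most CpG. Capitals mark CGGAA or its reverse complement TTCCG, the core bound by ETS factors, written so that it holds a CpG. The motif was picked with the sequences in view.
MAGEA6: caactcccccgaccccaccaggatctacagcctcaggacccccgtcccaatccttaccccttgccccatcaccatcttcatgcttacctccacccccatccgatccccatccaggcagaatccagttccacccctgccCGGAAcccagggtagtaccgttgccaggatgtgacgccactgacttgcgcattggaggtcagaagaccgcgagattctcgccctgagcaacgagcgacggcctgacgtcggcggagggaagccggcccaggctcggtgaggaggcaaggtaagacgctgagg
SSX5: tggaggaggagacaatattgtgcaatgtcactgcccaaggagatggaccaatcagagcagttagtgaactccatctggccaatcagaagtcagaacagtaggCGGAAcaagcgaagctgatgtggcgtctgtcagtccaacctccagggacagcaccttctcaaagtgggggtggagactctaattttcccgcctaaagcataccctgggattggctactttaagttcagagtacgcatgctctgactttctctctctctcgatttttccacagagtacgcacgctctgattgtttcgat
MAGEB1: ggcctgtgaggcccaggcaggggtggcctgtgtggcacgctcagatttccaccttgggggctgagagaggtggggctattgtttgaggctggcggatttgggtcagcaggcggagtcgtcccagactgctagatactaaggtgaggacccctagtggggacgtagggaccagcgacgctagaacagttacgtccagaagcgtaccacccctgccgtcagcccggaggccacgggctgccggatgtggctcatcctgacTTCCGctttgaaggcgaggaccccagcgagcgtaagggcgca
PRAME: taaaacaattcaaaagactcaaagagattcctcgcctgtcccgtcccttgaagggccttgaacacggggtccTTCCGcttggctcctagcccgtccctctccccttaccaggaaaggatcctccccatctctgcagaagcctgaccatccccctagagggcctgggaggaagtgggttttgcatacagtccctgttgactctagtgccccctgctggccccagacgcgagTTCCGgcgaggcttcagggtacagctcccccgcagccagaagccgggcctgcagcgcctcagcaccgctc

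They lie in GRCh38.p14 at chrX:152769640-152769939 on the minus strand for MAGEA6, chrX:48196746-48197045 on the minus strand for SSX5, chrX:30246896-30247195 on the plus strand for MAGEB1 and chr22:22559216-22559515 on the minus strand for PRAME. The MAGEA6 window held 19 CpG, the MAGEB1 window 18, the PRAME window 13 and the SSX5 window 9, against a median of 14 over all 35116 windows of the table and 13 over the members' windows. The other MAGEB1 window held 1 CpG, and the other PRAME windows 12 and 4. The motif stood once in each of the MAGEA6, SSX5 and MAGEB1 windows and at 2 places in the PRAME window. The MAGEB6B window, which is not printed, held 9 CpG and 0 matches. On either strand the motif was in 34.9% of all windows and in 35.1% of the 74 windows of 56 members.

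At the probe that stands for each gene, CTAG2 and CTAG1A were read at high levels in HBL-1 and were not detected in TMD8. CTAG2 encodes LAGE-1, and CTAG1A encodes NY-ESO-1, the same protein as its copy CTAG1B; both proteins are targets of T cell therapy. CTAG2 stood at 4.27, 4.33 and 4.26 in TMD8 with MI-2, 4.21 with z-VRPR-fmk and 4.22, 4.33, 4.18 and 4.33 with vehicle. In HBL-1 it stood at 10.83, 10.76 and 10.85 with MI-2, 10.94 with z-VRPR-fmk and 10.78, 10.92, 10.997 and 10.86 with vehicle. The dimmer CTAG2 probe, given below, was detected on 1 TMD8 array. At the brighter probe every HBL-1 array lay far above every TMD8 array, with detection on 0 of 8 TMD8 arrays and 8 of 8 HBL-1 arrays. The deposited intensities of that probe ran from 74.3 to 87.6 on TMD8 arrays and from 985 to 2725 on HBL-1 arrays. On vehicle arrays CTAG2 was at 4.26 ± 0.08 in TMD8 and 10.89 ± 0.09 in HBL-1 (SD, n = 4 each). As TMD8 gave only a bound, this is at least 76.1-fold lower in TMD8 with this background correction. The authors' deposited log2 values gave 12.7-fold, and they follow the mean intensity of all probes of a gene, not its brightest one. Without background correction the log2 difference of the brighter probe was -4.29. Such bounds set the mean of the line that detected the gene against the lowest level of any detected probe on each array of the other line, or the probe's own level where higher. Here and below they hold for the probe used and for this background correction, not for other processing. In whole-culture RNA, fewer expressing cells and less RNA per cell cannot be told apart.

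CTAG1A showed the same split of the lines. Its levels were 4.22, 4.41 and 4.23 in TMD8 with MI-2, 4.25 with z-VRPR-fmk and 4.26, 4.51, 4.19 and 4.27 with vehicle. In HBL-1 they were 8.26, 8.34 and 8.56 with MI-2, 8.41 with z-VRPR-fmk and 8.16, 8.24, 8.51 and 8.40 with vehicle. The 2 lines did not come near each other on any array. On vehicle arrays CTAG1A was at 4.31 ± 0.14 in TMD8 and 8.33 ± 0.16 in HBL-1 (SD, n = 4 each). With this background correction it was at least 12.9-fold lower in TMD8, against 3.75-fold in the authors' deposited log2 values. All 3 CTAG1A probes were detected on 0 TMD8 arrays and 8 HBL-1 arrays, while the 2 probes named CTAG1B were not measured.

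MAGEA1, the first human tumour antigen found through cytotoxic T cells, followed the CTAG genes. It was at 4.30, 4.24 and 4.25 in TMD8 with MI-2, 4.24 with z-VRPR-fmk and 4.22, 4.34, 4.27 and 4.23 with vehicle. In HBL-1 it was at 10.38, 9.95 and 10.28 with MI-2, 10.30 with z-VRPR-fmk and 10.47, 10.06, 10.42 and 10.34 with vehicle. No TMD8 array detected it and every HBL-1 array did. On vehicle arrays it was at least 51.4-fold lower in TMD8 with this background correction. The authors' deposited log2 values gave 11.4-fold.

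MAGEA6, a near-identical relative of MAGEA3 that binds the ubiquitin ligase TRIM28, was dim in both lines. It was at 4.29, 4.57 and 4.86 in TMD8 with MI-2, 4.34 with z-VRPR-fmk and 4.46, 5.01, 4.87 and 4.85 with vehicle. In HBL-1 it was at 5.84, 6.14 and 5.98 with MI-2, 5.83 with z-VRPR-fmk and 6.14, 5.78, 5.70 and 5.97 with vehicle. The TMD8 arrays were lower throughout, though 4 of 8 detected the gene, and the vehicle difference was -1.10, against -0.17 in the authors' deposited log2 values. MAGEA3 itself had 2 probes, neither of them measured.

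The other MAGEA genes overlapped between the lines. MAGEA9B, a copy of MAGEA9, was detected on all 16 arrays, with a median of 10.66 in TMD8 (10.46 to 10.85) and 10.72 in HBL-1 (10.56 to 11.04). Its vehicle difference was -0.19, and the ranges of the lines covered much of each other. MAGEA11, a coregulator of the androgen receptor, differed by -0.18, MAGEA2 by 0.14 and MAGEA5 by -0.02 on vehicle arrays. Their levels in both lines lay between 4.25 and 4.99, and each was detected on a minority of arrays.

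MAGEB1 and MAGEB6B were detected in both lines and lower in TMD8. MAGEB1 was at 8.16, 8.08 and 8.27 in TMD8 with MI-2, 7.86 with z-VRPR-fmk and 7.65, 8.06, 8.38 and 7.76 with vehicle. In HBL-1 it was at 8.99, 8.92 and 8.76 with MI-2, 8.82 with z-VRPR-fmk and 9.10, 9.17, 8.97 and 8.90 with vehicle. The lines lay close but apart, with a vehicle difference of -1.07. MAGEB6B was at 6.78, 6.76 and 6.88 in TMD8 with MI-2, 6.12 with z-VRPR-fmk and 6.39, 6.75, 6.98 and 6.62 with vehicle. In HBL-1 it was at 7.53, 7.83 and 7.38 with MI-2, 7.73 with z-VRPR-fmk and 7.84, 7.33, 7.30 and 7.50 with vehicle. The highest TMD8 array and the lowest HBL-1 array were near each other, and the vehicle difference was -0.81. The MAGEC genes MAGEC1 and MAGEC2, both known as antigens of myeloma, differed by 0.06 and -0.08 on vehicle arrays and overlapped.

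Of the SSX genes, SSX5 was detected on every HBL-1 array and no TMD8 array. Its levels were 4.21, 4.31 and 4.27 in TMD8 with MI-2, 4.43 with z-VRPR-fmk and 4.43, 4.36, 4.28 and 4.41 with vehicle. In HBL-1 they were 5.47, 6.09 and 6.16 with MI-2, 6.12 with z-VRPR-fmk and 5.40, 5.77, 5.60 and 5.94 with vehicle. The HBL-1 levels were low and spread, and SSX5 was at least 2.05-fold lower in TMD8 on vehicle arrays, a bound that the 1.21-fold of the authors' deposited log2 values does not reach. SSX4B, a copy of SSX4, was detected on 0 of 8 TMD8 arrays and 7 of 8 HBL-1 arrays, with a vehicle difference of -0.60, and its arrays overlapped. SSX4, a partner in the gene fusions of synovial sarcoma, differed by 0.13 and SSX3 by -0.18.

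PRAME ran the other way. It was at 8.91, 9.34 and 8.96 in TMD8 with MI-2, 8.98 with z-VRPR-fmk and 9.24, 9.24, 9.22 and 8.93 with vehicle. In HBL-1 it was at 7.05, 6.66 and 6.60 with MI-2, 6.94 with z-VRPR-fmk and 7.02, 6.73, 6.90 and 7.01 with vehicle. Both lines detected it on all arrays, and every TMD8 array was above every HBL-1 array. The vehicle means were 9.16 ± 0.15 in TMD8 and 6.92 ± 0.14 in HBL-1 (SD, n = 4 each), which is 4.72-fold higher in TMD8, against 2.66-fold in the authors' deposited log2 values.

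**Figure D1:**
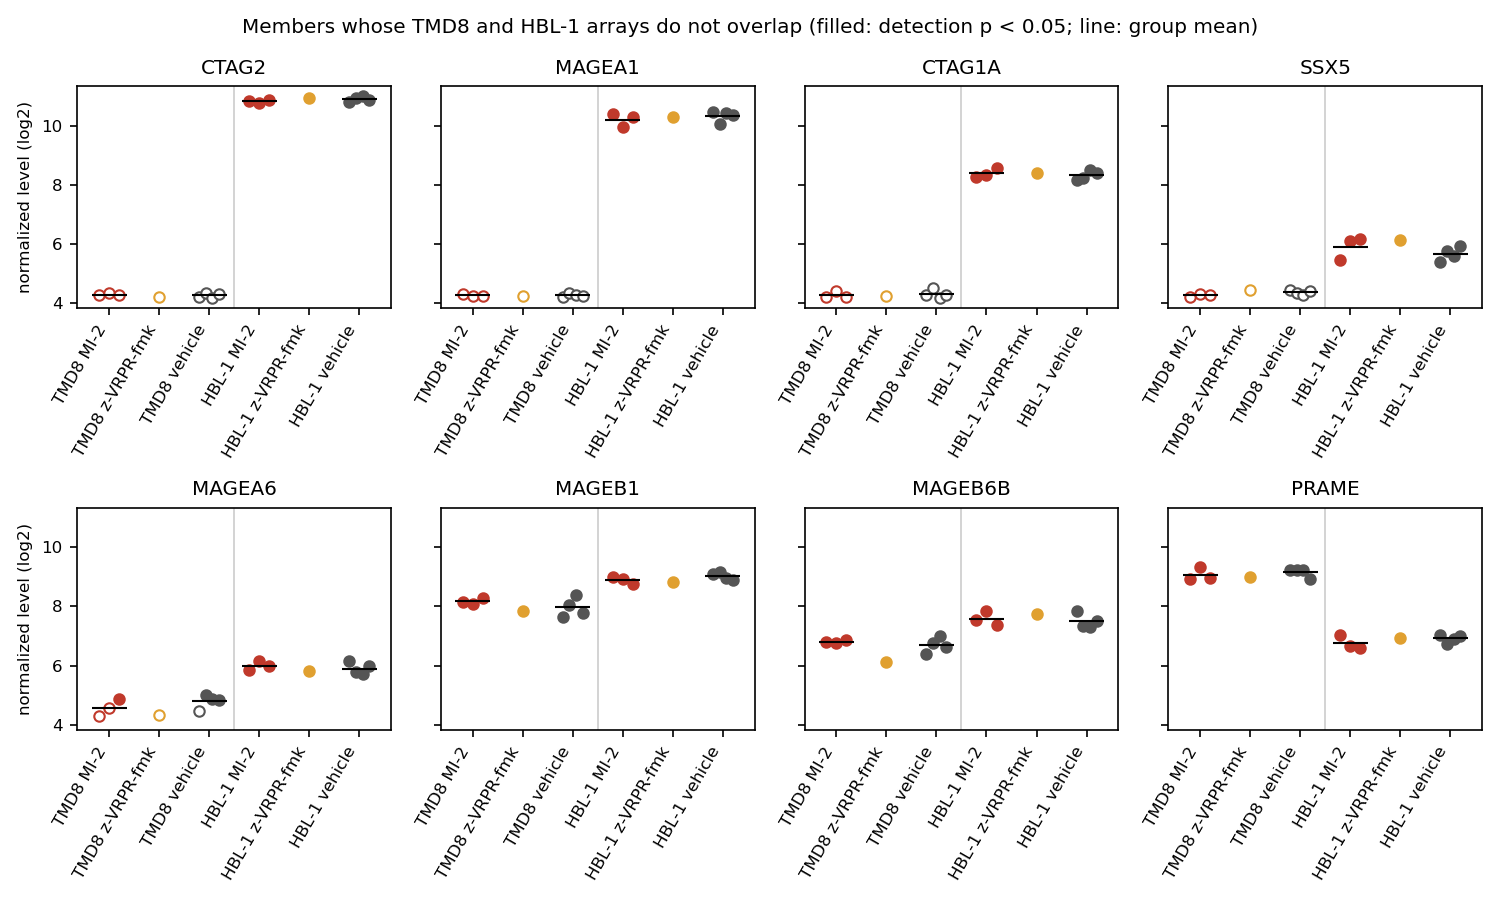
Normalized log2 level on each array (y axis) by line and treatment (x axis) for the 8 measured members whose lines do not overlap. Points are arrays, filled where detected, and bars are group means. CTAG2, MAGEA1, CTAG1A and SSX5 are open circles throughout TMD8 and filled throughout HBL-1, and PRAME alone is higher in TMD8.

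The plot of levels by array shows how tightly arrays of a line lay together for CTAG2, MAGEA1 and CTAG1A, and that, for the probes shown, levels with MI-2 and with vehicle overlapped within each line for these genes. The remaining members overlapped between the lines, and most lay near the detection limit. On vehicle arrays GAGE2B differed by 0.47, GAGE12E by -0.22 and GAGE12H by -0.15. XAGE1, XAGE1D and XAGE1E, names for copies of one gene, differed by 0.07, 0.01 and -0.08. CTAGE5 differed by -0.16, CTAGE6 by 0.18 and SSX2IP by 0.00. The median absolute difference on vehicle arrays was 0.18 over the 26 members and 0.26 over all genes tested.

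The plot of line differences splits the same arrays by treatment, which repeats the non-overlap and is no separate support. At its brighter probe and with this background correction, CTAG2 was at least 71.2-fold lower in TMD8 with MI-2, 78.2-fold with z-VRPR-fmk and 76.1-fold with vehicle. MAGEA1 was lower by at least 46.5-fold, 50.1-fold and 51.4-fold and CTAG1A by at least 13.2-fold, 13.6-fold and 12.9-fold in that order of treatments. PRAME, detected in both lines, differed by 2.30, 2.03 and 2.24. MAGEB6B differed by -0.78 with MI-2, -1.61 with z-VRPR-fmk, where each line has 1 array, and -0.81 with vehicle.

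**Figure D2:**
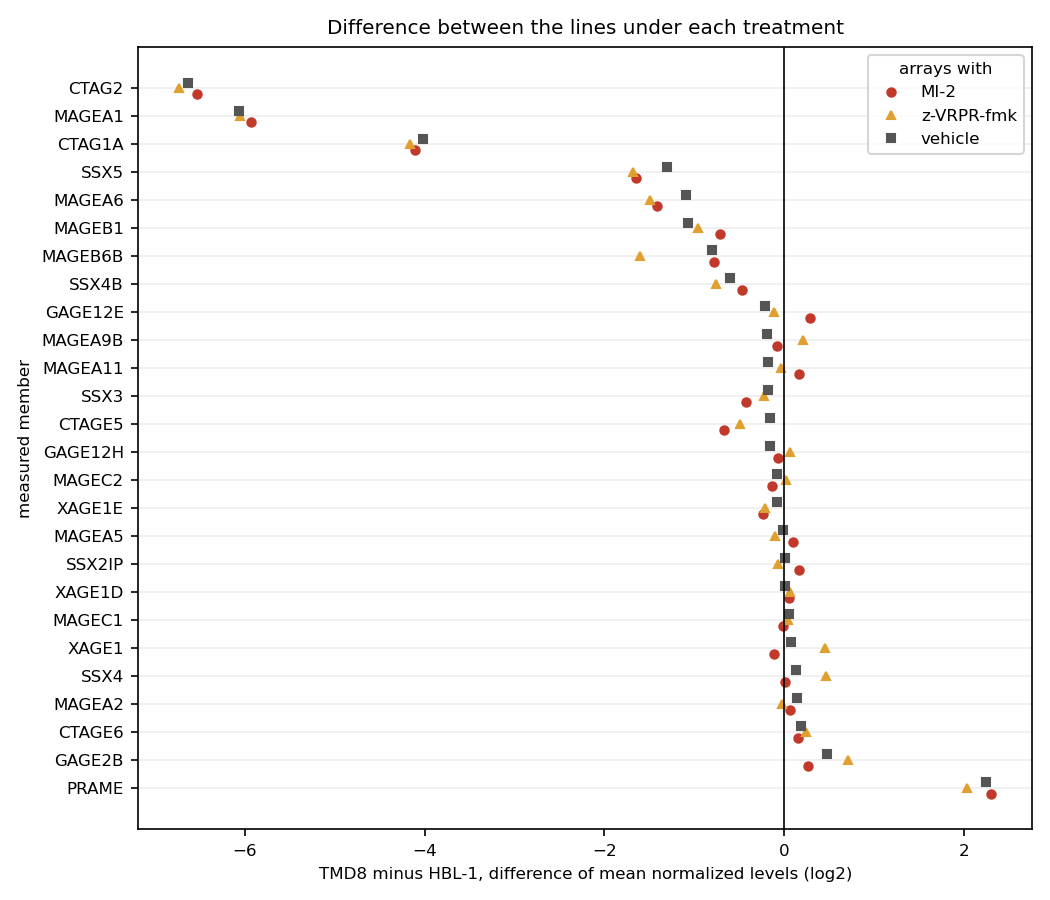
Difference of the mean log2 levels, TMD8 minus HBL-1 (x axis), for each of the 26 measured members (rows), within MI-2, z-VRPR-fmk and vehicle arrays. CTAG2, MAGEA1 and CTAG1A lie at the far left under every treatment and PRAME at the far right. For genes whose plotted probe was not detected in TMD8 (CTAG2, MAGEA1, CTAG1A, SSX5, SSX4B) the place of the point depends on the background level.

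Where a gene had several probes, they differed in size. The second CTAG2 probe was at 4.41 in TMD8 and 5.53 in HBL-1 over all 8 arrays each, a difference of -1.12, with detection on 1 TMD8 array and 8 HBL-1 arrays. With this background correction, the first probe was at least 74.5-fold lower in TMD8 over the same arrays. The 3 CTAG1A probes were lower by at least 13.1-fold, 10.5-fold and 6.99-fold and the MAGEA1 probes by at least 49.4-fold and 15.8-fold. The MAGEB1 probes differed by -0.93, -1.13 and -1.17, all detected on every array. PRAME's brighter probes differed by 2.24 and 2.13, and the dimmest by 0.29, with detection on 3 TMD8 arrays and 0 HBL-1 arrays. The other MAGEA6 probes differed by -0.13 and 0.00 and the other SSX5 probe by -0.09, all of them below the filter. So CTAG1A, MAGEA1 and MAGEB1 were lower in TMD8 by each of their probes, while the values of MAGEA6 and SSX5 rest on 1 probe each.

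**Figure D3:**
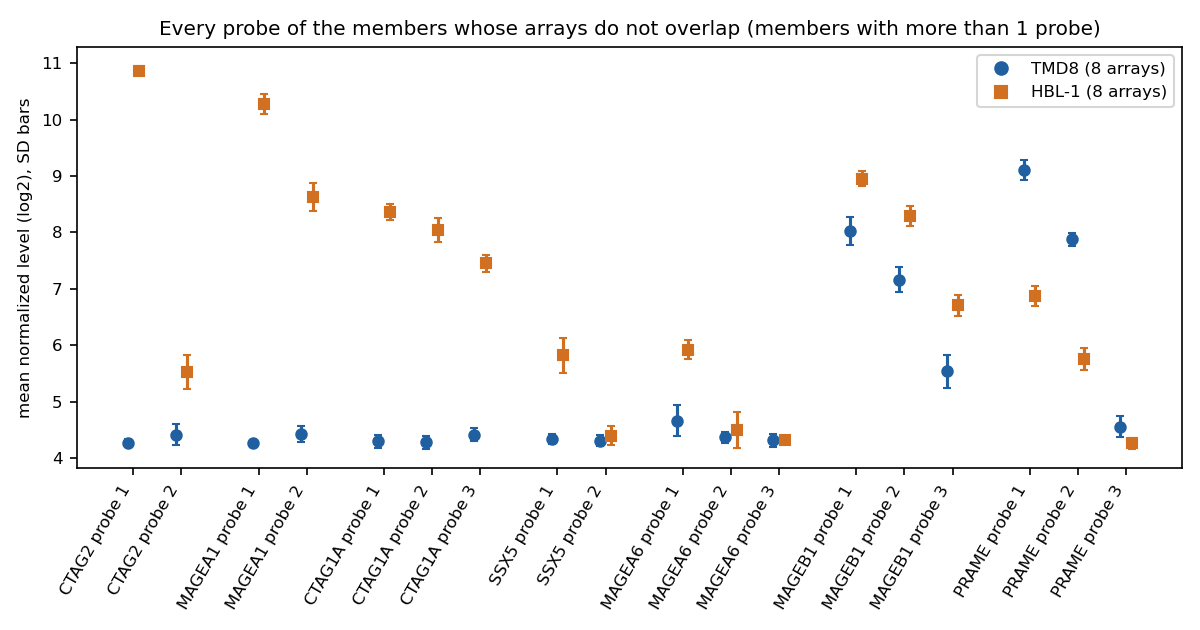
Mean log2 level of every probe of the non-overlapping members that have more than 1 probe (x axis) over 8 TMD8 and 8 HBL-1 arrays, with SD bars. CTAG2 probe 2 and PRAME probe 3 show much smaller differences than probe 1 of those genes.

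The study asked what MALT1 inhibition does to RNA levels, and for these genes MI-2 and z-VRPR-fmk gave no call in limma over all genes. With MI-2 in TMD8, 0 of 26 measured members passed an adjusted p under 0.05, where 0% of all genes did, and 1 member had an unadjusted p under 0.05, against 4.64% of all genes. With MI-2 in HBL-1, 0 of 26 passed (0.0114% of all genes) and 1 had an unadjusted p under 0.05 (5.34%). For the mean of the lines, 0 passed (0.00569%) and 2 had an unadjusted p under 0.05 (5.76%). For the difference between the lines in their MI-2 change, 0 passed (0%) and 1 had an unadjusted p under 0.05 (4.08%). For z-VRPR-fmk over both lines, 0 passed (0.00569%) and 2 had an unadjusted p under 0.05 (4.2%). MI-2 and z-VRPR-fmk share the vehicle arrays, so their values are not independent.

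With MI-2, after quantile normalization, 13 members were higher and 13 lower in TMD8, and the same numbers held in HBL-1. The balance depends on the scaling: with arrays scaled to their medians 9 were higher and 17 lower in TMD8, and 4 higher and 22 lower in HBL-1, where the median of all genes moved to -0.18 in TMD8 and -0.33 in HBL-1. With that scaling the members' median was -0.07 in TMD8 and -0.16 in HBL-1. After quantile normalization the members' median change was -0.01 in TMD8 and 0.00 in HBL-1, against -0.01 and -0.02 over all genes. Single changes ran between -0.35 and 0.40 in TMD8 and between -0.51 and 0.26 in HBL-1. With z-VRPR-fmk 9 members were higher and 17 lower, with a median of -0.04 against 0.00 over all genes. The 95% intervals of the MI-2 changes in 1 line reached 0.22 to 0.47 to either side, per gene and without adjustment. To pass after adjustment over all genes, a change had to be larger for the same spread. Changes of this size and somewhat above it could therefore have been missed.

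For the antigens that set the lines apart, the intervals of the treatment differences included 0 at the probe that stands for each gene. CTAG2 differed by -0.08 with MI-2 in HBL-1 (SE 0.10, 95% interval -0.29 to 0.14, limma adjusted p = 0.9896). MAGEA1 differed by -0.12 there (interval -0.40 to 0.15). In TMD8, where this CTAG2 probe was not detected with or without MI-2, a difference of 0.02 carries no information on expression. PRAME differed by -0.08 with MI-2 in TMD8 (interval -0.39 to 0.23) and by -0.15 in HBL-1 (interval -0.46 to 0.16). In HBL-1 the single z-VRPR-fmk array differed from the vehicle mean by 0.05 for CTAG2 and -0.03 for MAGEA1, and over both lines z-VRPR-fmk differed by -0.08 for PRAME.

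Other probes of these genes gave other values. The dimmer CTAG2 probe in HBL-1 was at 5.21, 5.17 and 5.24 with MI-2, 5.44 with z-VRPR-fmk and 5.68, 5.73, 5.94 and 5.83 with vehicle. All treated arrays lay below all vehicle arrays there, while the brighter CTAG2 probe overlapped. With every passing probe tested alone, a test added after the data were seen, it differed by -0.59 with MI-2 in HBL-1 (SE 0.14, 95% interval -0.87 to -0.30). Its unadjusted p was 0.000486 and its limma adjusted p over 22420 probes was 0.5189, or 0.5666 with the replicate block. The CTAG1A probe of middle level ran the opposite way in HBL-1, at 8.03, 8.34 and 8.12 with MI-2 and 7.88, 7.81, 7.88 and 7.92 with vehicle. Again the groups did not overlap. Both probes were named after their values were seen, and the share of all probes that split in this way is not given here. In the test of each probe alone, this CTAG1A probe differed by 0.29 (SE 0.12, limma adjusted p = 0.8896). In that test 0 of 35 member probes passed in any of the 5 comparisons, where 0.00892% of all probes passed with MI-2 in either line, 0.00446% in the mean of the lines, 0% for the difference between the lines and 0.00446% with z-VRPR-fmk. With an unadjusted p under 0.05 there was 1 of 35 member probes with MI-2 in TMD8 (4.7% of all probes) and 3 in HBL-1 (5.41%). There were 3 in the mean of the lines (5.83%), 2 for the difference between the lines (4.15%) and 3 with z-VRPR-fmk (4.15%).

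The 3 members with the smallest p in each comparison were named by rule, and none passed. In TMD8 with MI-2 these were GAGE12E (0.40, SE 0.16, limma adjusted p = 0.999), MAGEA2 (-0.23) and SSX2IP (-0.35). GAGE12E, one of the copies in the GAGE cluster, was at 4.85, 4.88 and 4.85 in TMD8 with MI-2 and 4.42, 4.47, 4.42 and 4.50 in TMD8 with vehicle. The groups did not overlap, and the gene was detected on 3 of 3 MI-2 arrays and 0 of 4 vehicle arrays there. It passed the filter of at least 3 arrays only through these MI-2 arrays, so the split is no separate support. The share of all genes that split in this way is not given here. In HBL-1 GAGE12E was at 4.57 on each of the 3 MI-2 arrays and at 4.47, 5.28, 4.47 and 4.46 with vehicle, where vehicle 2 alone detected it. All these values lie at the edge of detection. Its MI-2 change differed between the lines by 0.50 (SE 0.23, limma adjusted p = 0.9994), followed by CTAGE5 (-0.51) and MAGEB1 (0.35).

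SSX2IP, which is no SSX antigen, was among the 3 smallest p-values in 4 of the 5 comparisons, which share arrays and are not independent. It was at 4.85, 4.36 and 4.80 in TMD8 with MI-2, 4.53 with z-VRPR-fmk and 4.81, 4.82, 5.53 and 4.93 with vehicle. In HBL-1 it was at 4.73, 4.29 and 4.52 with MI-2, 4.59 with z-VRPR-fmk and 5.40, 4.51, 5.08 and 5.08 with vehicle. Taken as groups, MI-2 and vehicle arrays overlapped in both lines. Against the vehicle array of the same number, the MI-2 arrays of SSX2IP differed by 0.05, -0.46 and -0.73 in TMD8 and by -0.68, -0.22 and -0.56 in HBL-1. The z-VRPR-fmk arrays differed by -0.41 in TMD8 and -0.49 in HBL-1, so 7 of 8 such pairs were lower with treatment. As SSX2IP was picked by its p in these same arrays, this count is no further support. SSX2IP differed by -0.51 with MI-2 in HBL-1 (SE 0.21, limma adjusted p = 0.9091). In the mean of the lines it differed by -0.43 (SE 0.15, limma adjusted p = 0.8099, or 0.6374 with the replicate block). Over both lines it differed by -0.46 with z-VRPR-fmk (SE 0.21, limma adjusted p = 0.9995).

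The others named by the rule were SSX5 (0.23) and CTAGE5 (0.26) with MI-2 in HBL-1, and MAGEA2 (-0.19) and GAGE2B (-0.25) in the mean of the lines. With each array scaled to its median instead, the HBL-1 changes were -0.15 for SSX5 and -0.03 for CTAGE5, where the median of all genes was -0.33. For z-VRPR-fmk they were MAGEC1 (0.30, SE 0.13, limma adjusted p = 0.9995) and MAGEA6 (-0.27). MAGEC1 was at 4.72 in TMD8 and 4.68 in HBL-1 with z-VRPR-fmk, against 4.43 ± 0.20 in TMD8 and 4.38 ± 0.18 in HBL-1 with vehicle (SD, n = 4 each). Each of those z-VRPR-fmk arrays detected MAGEC1, as did 1 vehicle array per line.

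**Figure D4:**
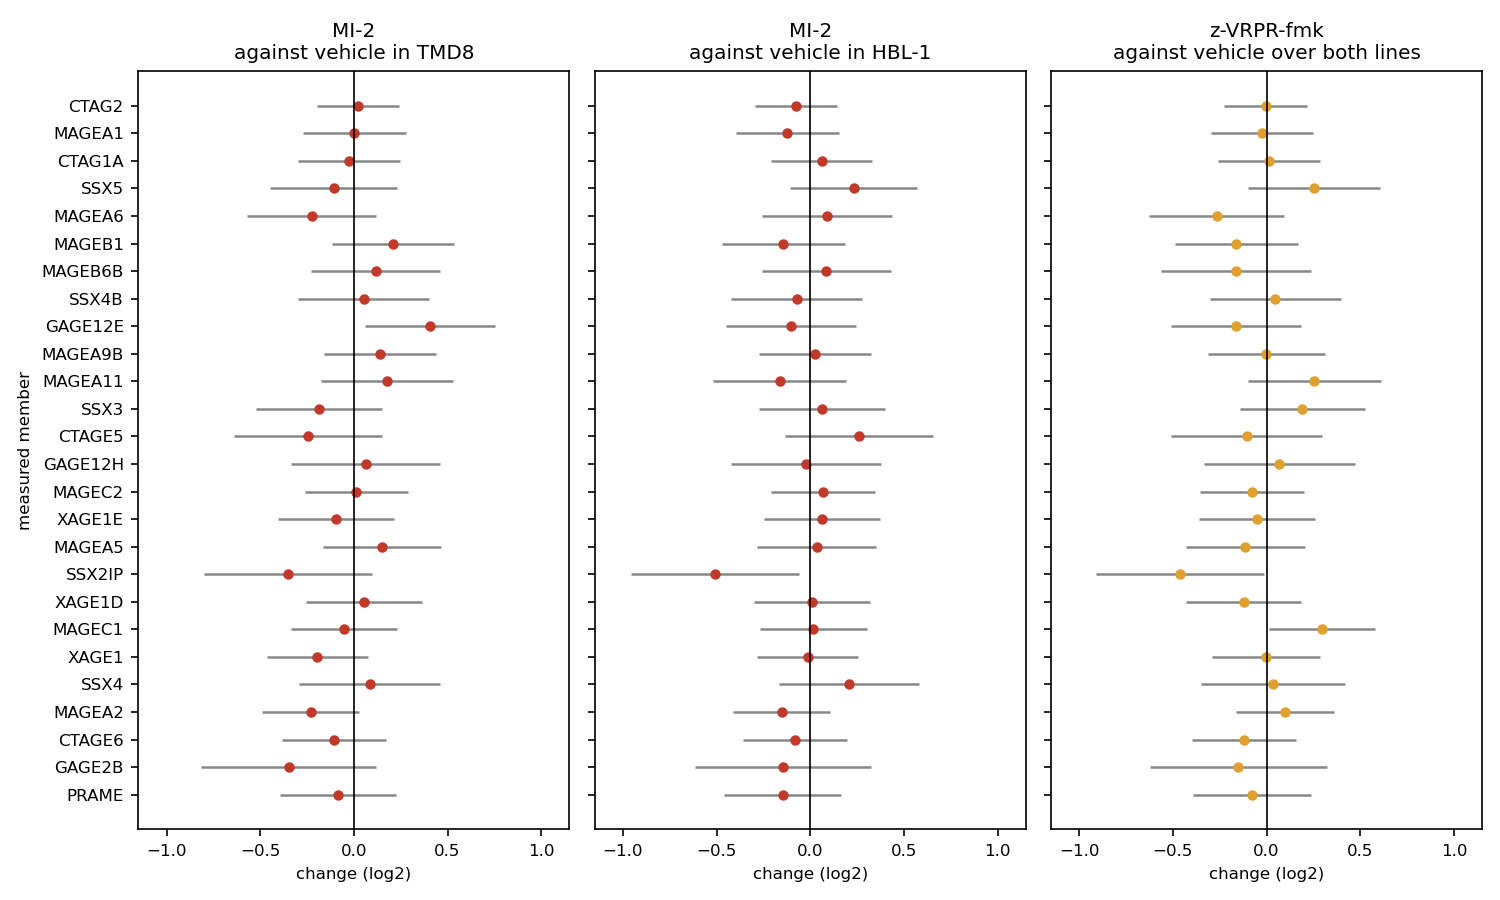
Change in log2 level (x axis) for each measured member (rows), with 95% intervals as bars: MI-2 against vehicle in TMD8, MI-2 against vehicle in HBL-1, and z-VRPR-fmk against vehicle over both lines. Most intervals include 0, and the exceptions (GAGE12E, SSX2IP, MAGEC1) did not pass after adjustment over all genes.

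The plot of changes lists the members in order of their line difference, and neither its upper rows, with CTAG2 and MAGEA1, nor PRAME at the bottom lay farther from 0 than the rest. Lists of genes around the antigens were then read in the same fits. In all 6 lists, 0 genes passed in any of the 5 treatment comparisons, and counts at an unadjusted p under 0.05 by limma lay between 0 and 4 per list. A count of 4 was reached by 36 measured DNA methylation and chromatin repressor genes with MI-2 in HBL-1 (5.34% of all genes). The 22 measured HLA class I genes reached 4 with z-VRPR-fmk (4.2% of all genes). No test was run on a list as a whole.

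The list of other cancer-testis genes held 142 names, of which 120 were on the array and 46 were measured. Among these 46, TMD8 was lower without overlap in 4 and higher in 5, 19.6% against 25.2% of all genes. Their median vehicle difference was -0.03. LDHC, the lactate dehydrogenase of sperm, was at least 4.49-fold lower in TMD8, ELOVL4, a fatty acid elongase, at least 2.82-fold and PTPN20A, a phosphatase, at least 2.38-fold. All 3 were undetected on every TMD8 array, and the bounds hold with this background correction. The 5 genes higher in TMD8 were CT45A1 (vehicle difference 1.52), CT45A5 (1.38), IGSF11 (1.35, with HBL-1 at 4.38), SPA17 (0.99) and CT45A4 (0.95). The smallest p with MI-2 belonged to IGSF11, an adhesion protein, in TMD8 (-0.65, SE 0.30) and to ZNF165, a zinc finger protein, in HBL-1 (0.74, SE 0.20, limma adjusted p = 0.6834). With z-VRPR-fmk it belonged to TTK, a kinase of the spindle checkpoint (0.46). Higher and lower members numbered 18 and 28 with MI-2 in TMD8, 15 and 31 in HBL-1 and 27 and 19 with z-VRPR-fmk.

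The list of other MAGE and related genes held 14 names, of which 13 were on the array and 10 were measured. Of these 10, 3 were lower in TMD8 without overlap (12.8% of all genes were) and 0 higher (12.4%). Their median was -0.19. These genes are expressed widely rather than in the germ line alone. MAGEL2, an imprinted gene, differed by -1.38 and TRO, the adhesion protein trophinin, by -0.85. LAGE3, a subunit of a tRNA-modifying complex and not a MAGE gene, differed by -0.80. LAGE3 is also in the list of Xq28 neighbours below. By smallest p the treatment comparisons named MAGED2 (-0.27 with MI-2 in TMD8), MAGEH1 (0.31 in HBL-1) and MAGED1 (-0.15 with z-VRPR-fmk).

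The list of partner genes held 19 names, of which 16 were on the array, and all 16 were measured. TMD8 was lower in 1 and higher in 4 without overlap, 31.2% against 25.2% of all genes. TRIM28, the ligase that MAGEA6 and its relatives bind, was at 10.88 ± 0.07 in TMD8 and 9.57 ± 0.06 in HBL-1 on vehicle arrays (SD, n = 4 each), a difference of 1.31. RARA, the retinoic acid receptor that PRAME binds, was at 7.75 ± 0.21 in TMD8 and 6.32 ± 0.28 in HBL-1 (SD, n = 4 each), and like PRAME it was higher in TMD8. RNF8, a ubiquitin ligase of the DNA damage response, differed by -1.02. RARA had the smallest p of the list with MI-2 in HBL-1 (-0.38).

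The list of DNA methylation and chromatin repressor genes held 41 names, of which 40 were on the array and 36 were measured. Of these 36, 5 were lower and 7 higher in TMD8 without overlap, 33.3% against 25.2% of all genes. MBD3, a subunit of the NuRD repressor complex, was at 8.12 ± 0.21 in TMD8 and 5.90 ± 0.31 in HBL-1 (SD, n = 4 each), a difference of 2.22. AOF2, the histone demethylase now called KDM1A, was at 8.05 ± 0.08 in TMD8 and 9.71 ± 0.12 in HBL-1 (SD, n = 4 each), a difference of -1.66. HDAC1, a histone deacetylase, differed by -1.41. The maintenance methyltransferase DNMT1 differed by -0.54, and its arrays overlapped between the lines. Of the other measured DNA methyltransferases, DNMT3A was higher in TMD8 without overlap (0.73), while DNMT3B (-0.65) overlapped. The smallest p belonged to ATRX in TMD8 (0.37), SUV39H2 in HBL-1 (0.50) and MGA with z-VRPR-fmk (0.40). The MI-2 change of SUV39H2, a histone methyltransferase, differed between the lines by -0.71 (SE 0.24, limma adjusted p = 0.9994), and PCGF6 had the smallest p in the mean of the lines (-0.20).

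For HLA class I antigen presentation, 22 of 23 genes were measured, 1 lower and 6 higher in TMD8 without overlap, 31.8% against 25.2% of all genes, with a median of 0.16. TAP2, part of the peptide transporter, differed by 1.26, the chaperone CANX by 1.21 and TAPBP, which loads peptides, by 0.88. By smallest p the comparisons named NLRC5, the activator of these genes, in TMD8 (-0.43), CALR in HBL-1 (0.46, SE 0.15, limma adjusted p = 0.7806) and HLA-C with z-VRPR-fmk (0.52).

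The X-linked neighbours of CTAG2 in band Xq28 held 19 measured of 26, 4 lower and 0 higher in TMD8 without overlap, 21.1% against 25.2% of all genes, with a median of -0.21. Those 4 were MTCP1 (-1.22), LAGE3 (-0.80), PLXNA3 (-0.65) and IKBKG. SLC10A3 differed by -0.68, and its arrays overlapped between the lines. IKBKG, the NF-kB regulator that lies next to CTAG1A, differed by -0.43, and DKC1, a telomerase component on the other side of CTAG2, by -0.04. UBL4A had the smallest p with MI-2 in TMD8 (-0.31), in HBL-1 (-0.45) and in the mean of the lines (-0.38, SE 0.09, limma adjusted p = 0.7177), and SLC10A3 with z-VRPR-fmk (0.51).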

How the data were processed

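Per the file headers, the authors deposited a linear signal intensity, not normalized, and a detection p-value for each probe on each of the 16 arrays. A further deposited table gives log2 values by gene symbol, and how the authors made it is not stated. In the match described below, a gene's value followed the mean linear intensity of all its probes. The levels above come from 1 probe per gene, so the 2 measures differ. The submitters' processing notes name Partek, with no version. Gene names were given to probes by matching the 2 tables by value within 0.02 log2 over all arrays, which joined 34684 of 34687 names and 0 after the arrays were shuffled. Intensities were corrected and quantile normalized with limma's neqc (limma 3.58.1, R 4.3.3; offset 16) and put on the log2 scale. Probes detected (p under 0.05) on at least 3 arrays were kept, the probe with the highest mean stood for its gene, and 92 spike-ins were left out, leaving 17586 genes. limma (lmFit, eBayes) fitted the 6 group means. The single z-VRPR-fmk arrays of the lines were fitted with 1 effect assumed equal in both. Tests were two-sided, with Benjamini-Hochberg adjustment over all genes. The number of arrays limits the precision, and the median standard error was 0.157 for MI-2 in 1 line. The method was tested on simulated data.

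The members and the gene lists (other cancer-testis genes, other MAGE genes, partner genes, DNA methylation and chromatin repressor genes, HLA class I genes, Xq28 neighbours, and cell type markers) were chosen with earlier results of these data known. All measured members were named. Array values were given for those whose lines do not overlap, and the 3 smallest p-values were named per treatment comparison. From each list the 3 largest line differences and the smallest p per comparison were named. Other list genes (DNMT1, DNMT3A, DNMT3B, IKBKG, PLXNA3, DKC1 and the other cancer-testis genes higher in TMD8 without overlap) were named after their values were seen. The smallest p of the partner genes in some comparisons is not reported here. Deviations of MI-2 and vehicle arrays with the same number correlated by 0.156 to 0.309, and with other numbers by at most -0.039. The labels' numbers thus pair the arrays, and whether by culture or by run is not given. The main fits left this pairing out. With the replicate block, members with an unadjusted limma p under 0.05 numbered 3 for MI-2 in TMD8 and 2 in HBL-1. They numbered 1 in the mean of the lines, 3 for the difference between the lines and 3 for z-VRPR-fmk. Alternatives changed the background correction, scaling, filter, probe choice, fit, replicate block and arrays used. Testing each passing probe alone, and counting members under median scaling, were added after the data were seen. Sequences, chromosomes and neighbours are from RefSeq (GRCh38.p14).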

Additional observations from a re-analysis of the deposited data

Results flagged for a closer look

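In 4 of 52 groups of 4 vehicle arrays examined, 1 array lay far from the other 3, by Dixon's ratio of the gap to the whole range. Chance alone flags about 1 in 20 such groups. PRAME was at 8.93 on TMD8 vehicle 4, against 9.22 to 9.24 on the other TMD8 vehicle arrays (ratio 0.935), and still lay above all HBL-1 arrays. CTAGE6 was at 4.46 on the same array, against 4.71 to 4.76 (ratio 0.837), and XAGE1 at 4.71, against 4.47 to 4.50 (ratio 0.882). GAGE12E was at 5.28 on HBL-1 vehicle 2, against 4.46 to 4.47 (ratio 0.989). HBL-1 vehicle 2 and MI-2 2 had the smallest shares of detected probes, and the part of this in the GAGE12E value was not tested.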

How the results depend on the processing

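No member passed the threshold in any of the 5 treatment comparisons under any of the 24 or 25 alternatives run for each, nor with every passing probe tested alone, an alternative chosen after seeing the data (smallest adjusted p 0.5189, for CTAG2's dimmer probe with MI-2 in HBL-1). Apart from that test, the smallest adjusted p of a member was 0.5333 for MI-2 in TMD8, 0.2996 in HBL-1, 0.2217 in the mean of the lines, 0.7866 for the difference between the lines and 0.9205 for z-VRPR-fmk. With the replicate block, which pairs arrays of 1 number, 0 members and 0 of all genes passed in every comparison, and the smallest member adjusted p was 0.7916 (GAGE12E), 0.6111 (SSX2IP), 0.6374 (SSX2IP), 0.7866 (SSX3) and 0.9998 (MAGEA11) in the same order. Over all genes the calls were 0 to 1, 0 to 3, 0 to 2, 0 and 0 to 3. Leaving out 1 array at a time gave 0, 1 to 3, 0 to 1, 0 and 0 to 3.

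Scaling to array medians in place of quantiles moved the median change of all genes to -0.18 for MI-2 in TMD8, -0.33 in HBL-1, -0.25 in the mean, 0.15 for the difference between the lines and -0.07 for z-VRPR-fmk. There SSX5 (-0.15, adjusted p = 0.6663) and CTAGE5 (-0.034, adjusted p = 0.9363) turned negative with MI-2 in HBL-1.

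The line differences kept their sign for the 8 non-overlapping members in all 22 alternatives. Their number was 6 to 9 (8 to 9 with 1 array left out), and the share of all genes was 12.8% to 32%. CTAG2 was -6.76 with scaling to medians, -4.29 with no background correction, -3.67 in the authors' deposited log2 values and -3.97 as the mean of its probes. In the authors' values, which follow the mean of a gene's probes, MAGEA1 was -3.52, CTAG1A -1.91, PRAME 1.41, SSX5 -0.28 and MAGEA6 -0.17. The cause was not tested. Slide as a block was not run, as the headers give no slide. Signals near background limit most members: 56 of 82 were not measured.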
